A study of Mus musculus with 22 samples.

Results

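NADPH oxidases are membrane enzymes that pass electrons from NADPH to oxygen and so make superoxide or hydrogen peroxide, which cells use to kill microbes, to signal and to cross-link matrix. In epithelia the catalytic subunit Nox1 works in a complex with the membrane partner Cyba (p22phox), the organiser Noxo1, the activator Noxa1 and the GTPase Rac1, a set best known from the colon. Nox4 needs Cyba but no organiser or activator, Cybb (gp91phox) is the catalytic subunit of phagocytes, and the dual oxidases Duox1 and Duox2 are switched on by calcium and leave the endoplasmic reticulum with the help of Duoxa1 and Duoxa2. Noxo1 is the epithelial counterpart of the phagocyte organiser Ncf1 (p47phox).

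The genes described here are 8 of this family, Noxo1, Noxa1, Nox1, Nox4, Cyba, Cybb, Duox1 and Duox2, out of 30102 genes with a probe set of their own on the array. Each of the 8 was read by 1 probe set whose only gene symbol was that of the member. Noxo1 and Noxa1 head the group because of their values in male knockouts, so their difference from male controls is given as a description, and its place among the called genes supports nothing. The other 6 complete the list of oxidase genes. The filter against dim probe sets, which 6 of the 8 passed, asked for a value above the median of all transcript clusters on at least 5 arrays. Nox1 and Cybb did not pass, and of all genes 19050 did.

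RNA was taken from urogenital sinus epithelium, a fetal lining that forms the prostate in males, in C57BL/6J mice at E16.75. Knockout fetuses (ShhCre/+; Sox9fl/fl) carried Cre recombinase at 1 Shh allele, which deletes Sox9 in cells that express Shh, and were 6 males and 5 females. Littermate controls (Shh+/+; Sox9+/fl) had no Cre but carried 1 floxed Sox9 allele, and were 6 males and 5 females. All 4 groups therefore held a floxed Sox9 allele, and every knockout also lacked the normal sequence of 1 Shh allele, so that Sox9 loss and the Cre allele cannot be told apart. The replicates are called biological, but whether tissue of several fetuses was pooled is not given, and p-values therefore measure the spread between these arrays.

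All values are log2 expression per probe set as the authors deposited them, with array medians between 5.10 and 5.27 and 23 background control probe sets at a median of 3.19. A difference of 1 is a doubling, and values of different probe sets are not set against each other. Sox9 fell in both sexes: male knockouts averaged 8.26 ± 0.14 and male controls 9.33 ± 0.21 (SD, n = 6 each), while female knockouts averaged 7.89 ± 0.09 and female controls 8.89 ± 0.11 (SD, n = 5 each). The arrays overlapped in neither sex (limma's adjusted p = 1.04e-07 and 2.28e-06). Shh was lower too, by -0.45 in males and -0.56 in females (adjusted p = 0.00874 and 0.0128). The 10 epithelial markers, among them Epcam, Cdh1, Krt8 and Trp63, all lay above the filter, with means per array of 11.15 to 11.33. Of the phagocyte markers 11 of 12 passed the filter, with Ptprc below it on every array. Of the mesenchyme markers 9 of 12 passed it, and of the endothelial ones 2 of 6. Male control 6 stood apart in mesenchyme markers, with a mean of 7.88 against at most 6.97 in the other male controls, and in smooth muscle markers, with 7.11 against at most 5.79. The same array had an endothelial mean of 6.68 against at most 5.77 in the other male controls. Male knockout 5 was the highest of its group in smooth muscle markers, at 6.04 against at most 5.65, and in endothelial markers, at 6.29 against at most 5.94. The 7 urothelial markers averaged 9.82 to 10.42 in male knockouts and 9.74 to 10.20 in male controls, and 9.83 to 10.43 in female knockouts and 9.64 to 10.08 in female controls. None of the 7 passed in knockouts against controls, and 4 were higher in females at an unadjusted p under 0.05, beside 3.07% of all genes.

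The promoters of Noxo1 and Noxa1 are shown because these are the members that were lower together in male knockouts, that of Gpx2 because it was the 1 gene of the wider redox lists that fell with them, and that of Duox2 because this member differed most clearly between the sexes among the catalytic genes. The sequences are those of RefSeq, build GRCm38.p6, read 5′ to 3′ on the strand of the gene, from 250 bases before the transcription start to 50 after it. Capitals mark letters that match a searched motif on either strand. The windows are chr17:24695984-24696283 on the plus strand for Noxo1, chr2:25095156-25095455 on the minus strand for Noxa1, chr12:76795505-76795804 on the minus strand for Gpx2 and chr2:122298178-122298477 on the minus strand for Duox2.
Noxo1: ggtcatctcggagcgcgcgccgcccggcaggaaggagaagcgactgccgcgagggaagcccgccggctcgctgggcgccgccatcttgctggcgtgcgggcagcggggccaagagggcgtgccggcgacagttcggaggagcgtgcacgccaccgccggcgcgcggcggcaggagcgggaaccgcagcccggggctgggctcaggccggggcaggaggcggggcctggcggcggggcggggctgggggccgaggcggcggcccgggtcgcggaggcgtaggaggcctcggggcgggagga
Noxa1: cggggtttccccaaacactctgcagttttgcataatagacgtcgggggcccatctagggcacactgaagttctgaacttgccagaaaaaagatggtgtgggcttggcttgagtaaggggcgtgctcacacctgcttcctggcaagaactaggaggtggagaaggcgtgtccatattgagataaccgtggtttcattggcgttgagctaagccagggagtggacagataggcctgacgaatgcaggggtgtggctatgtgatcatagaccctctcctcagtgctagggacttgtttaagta
Gpx2: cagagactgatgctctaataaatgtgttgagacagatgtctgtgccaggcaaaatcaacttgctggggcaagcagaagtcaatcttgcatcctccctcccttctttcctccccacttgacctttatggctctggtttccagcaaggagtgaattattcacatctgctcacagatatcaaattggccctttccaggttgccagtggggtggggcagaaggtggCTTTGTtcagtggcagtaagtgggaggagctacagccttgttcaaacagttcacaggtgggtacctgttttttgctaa
Duox2: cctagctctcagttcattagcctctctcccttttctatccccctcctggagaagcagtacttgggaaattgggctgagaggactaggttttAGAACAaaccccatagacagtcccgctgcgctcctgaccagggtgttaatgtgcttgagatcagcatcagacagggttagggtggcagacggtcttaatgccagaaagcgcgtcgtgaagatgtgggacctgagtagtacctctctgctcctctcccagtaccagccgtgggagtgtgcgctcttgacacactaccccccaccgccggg

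The motifs searched on both strands were ACAAAG and ACAAT, cores that SOX proteins can bind, and AGAACA, a core that the androgen receptor can bind. The windows of Noxo1 and Noxa1 held none of these letters. Gpx2 held 1 ACAAAG, whose first base in the window lay at position -28 from the start site, and Duox2 held 1 AGAACA at -159. Among 32851 promoter windows of the same length, 18.7% held ACAAAG, 31.0% held ACAAT and 19.0% held AGAACA, so a single match is common. Of the other members, Nox4 held 1 ACAAAG, Nox1 1 ACAAT, and Duox1 1 ACAAAG and 2 AGAACA, with ACAAAG and the first AGAACA overlapping, while Cyba and Cybb held none. The Noxo1 window was 80.3% G and C and the Noxa1 window 52.0%. Letters in a window are no evidence of binding, and their absence says nothing of sites elsewhere.

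Noxo1, the organiser that brings the activator to the membrane complex, was lower in male knockouts. It read 6.10, 6.00, 6.34, 6.05, 6.08 and 6.26 in male knockouts, against 6.31, 6.53, 6.79, 6.54, 6.46 and 6.84 in male controls. Of the 6 knockout arrays 5 lay below every control, and knockout 3 lay just above the lowest control. The means were 6.14 ± 0.13 and 6.58 ± 0.20 (SD, n = 6 each), a log2 difference of -0.44 (SE 0.08), or 1.35-fold lower. In bulk tissue, fewer cells of a type that expresses a gene and less RNA per cell cannot be told apart.

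Noxa1, the activator that turns on the catalytic subunit, was lower in the same comparison. It read 6.78, 6.59, 6.61, 6.76, 6.78 and 6.55 in male knockouts, against 6.72, 7.08, 7.25, 7.11, 7.24 and 7.07 in male controls. Male control 1, at 6.72, lay inside the knockout range, and the other 5 controls lay above every knockout. The means were 6.68 ± 0.10 and 7.08 ± 0.19 (SD, n = 6 each), a log2 difference of -0.40 (SE 0.08), or 1.32-fold lower.

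These were the values that chose Noxo1 and Noxa1: both belonged to the 34 genes called lower in male knockouts (adjusted p under 0.05 in the fit over all genes), which is 0.178% of the 19050 tested, and nothing is read from that count. Neither gene belonged to the 0.420% of genes whose male knockout and control arrays did not overlap. Leaving out each array in turn gave differences of -0.49 to -0.39 for Noxo1 and of -0.47 to -0.37 for Noxa1, which is no independent check, since the same arrays chose the genes. Without male control 6 the differences were -0.39 for Noxo1 and -0.40 for Noxa1, and with the mesenchyme mean as a covariate they were -0.40 for each. Noxa1 left the list of called genes without male control 2, 3, 4, 5 or 6, male knockout 2, 3 or 6 or female control 2, with quantile normalization (-0.41) and with the mesenchyme covariate. When the fit held the male arrays alone, both left it, at -0.44 and -0.40.

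**Figure D1:**
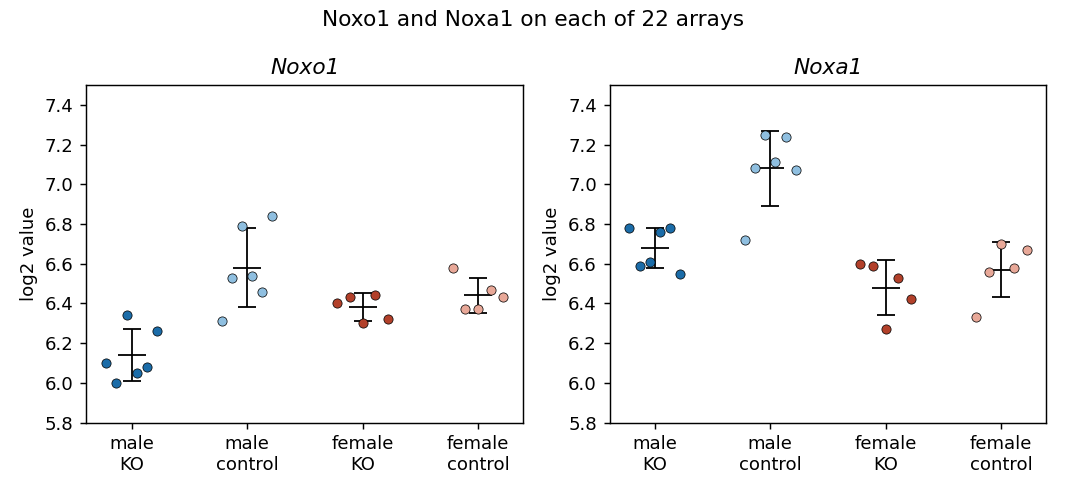
Log2 values of Noxo1 (left) and Noxa1 (right) on each of the 22 arrays, by group from male knockouts to female controls; points are arrays, and the long tick and whiskers are the mean and SD of 6 male or 5 female arrays. In males 5 of 6 Noxo1 knockout arrays lie below every control, and 5 of 6 Noxa1 control arrays lie above every knockout, while female knockouts and controls overlap for both genes.

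The female values form no part of the male difference, but the female arrays shared in the estimate of spread behind its calls. In females neither gene differed detectably. Noxo1 read 6.40, 6.43, 6.30, 6.44 and 6.32 in female knockouts, against 6.58, 6.37, 6.37, 6.47 and 6.43 in female controls. Its difference was -0.07 (95% interval -0.24 to 0.10, adjusted p = 1). Noxa1 read 6.60, 6.59, 6.27, 6.53 and 6.42 in female knockouts, against 6.33, 6.56, 6.70, 6.58 and 6.67 in female controls, a difference of -0.09 (95% interval -0.27 to 0.10, adjusted p = 1). The groups overlapped for both genes. The test of the male against the female effect was still not passed, with -0.37 for Noxo1 (SE 0.11) and -0.32 for Noxa1 (SE 0.12, adjusted p = 0.997 for each), although it contains the male values that chose the genes. By this test, a difference in response between the sexes was not shown. Over both sexes the mean differences were -0.25 for Noxo1 and -0.24 for Noxa1.

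Across the 4 groups the order of the levels differed between Noxo1 and Noxa1. Noxo1 was highest in male controls (6.58), followed by female controls (6.44 ± 0.09), female knockouts (6.38 ± 0.07) and male knockouts (6.14). No step between the first 3 groups passed the test, and male knockouts minus female knockouts gave -0.24 (SE 0.08, adjusted p = 0.079). That difference passed in 3 of the 22 fits with 1 array left out. The male knockout arrays in it also entered the comparison that chose Noxo1 and Noxa1. Noxa1 was highest in male controls (7.08), followed by male knockouts (6.68), female controls (6.57 ± 0.14) and female knockouts (6.48 ± 0.14). Its male controls lay above its female controls by 0.51 (SE 0.09, adjusted p = 0.000308), with all 6 male arrays above all 5 female ones, and by 0.52 without male control 6. Male knockouts and female controls overlapped and were not compared, and male knockouts did not differ detectably from female knockouts (0.20, SE 0.09, adjusted p = 0.214). The male control arrays of that sex difference also entered the comparison that chose Noxa1. Arrays that did not overlap, with males higher, were found for 2.82% of all genes in controls.

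After each array's group mean was taken away, Noxo1 and Noxa1 correlated at r = 0.17 over the 22 arrays (Spearman's rho 0.08), so within groups an array high in the organiser was not especially high in the activator. The genes most like Noxo1 by this measure were Robo4, Rpl10a, Aup1, Kcnn4 and Cables1 (r = 0.76 to 0.70), and those most like Noxa1 were Mrpl38, Polr2j, Slc22a18, Mrpl4 and Usf2 (r = 0.84 to 0.75). Of these 10 genes Kcnn4, a calcium-activated potassium channel, stood at -0.56 in male knockouts, and the other 9 stood between -0.10 and 0.06. All 10 were picked for the highest r among the many tested genes, with no test, and are a description. With the group means kept in, the genes most like Noxo1 were Igfbp4, Kcnn4, Cdkn1c, Gpx2-ps1 and Gpx2 (r = 0.82 to 0.77), and those most like Noxa1 were Large2, Mia, Arpc4, Them6 and Cxcr4 (r = 0.85 to 0.81). These correlations contain the group differences and are a description of 22 arrays that share 4 groups.

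In gene order, the nearest tested neighbours of Noxo1 on chromosome 17 were Gfer at -0.08 and Tbl3 at -0.08 in male knockouts, with Syngr3 at 0.03 and Rnf151 at 0.09 beyond them. The nearest of Noxa1 on chromosome 2 were Entpd8 at -0.03 and Nrarp at 0.02, with Nsmf at -0.16 and Tor4a at -0.06 beyond them. None of these 8 neighbours passed the test (adjusted p of 0.793 or more).

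Nox1, the catalytic subunit that Noxo1 and Noxa1 serve, lay below the median of transcript clusters on all 22 arrays. It read 3.75 to 3.86 in male knockouts and 3.76 to 3.88 in male controls, and 3.77 to 3.89 in both female knockouts and female controls. All 4 groups overlapped, and the whole range over 22 arrays was 3.75 to 3.89, with the probe set at the 23.5th percentile of transcript clusters. Fitted without the filter, knockouts differed from controls by 0.02 in males (95% interval -0.06 to 0.10) and by 0.01 in females (-0.07 to 0.10). A probe set this dim may not follow a change in its gene. Nox3, the inner ear oxidase that also works with Noxo1, read 3.75 to 4.01 and was below the median on every array too.

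Cybb, the phagocyte catalytic subunit, was likewise below the filter, with 4.65 to 5.04 in male knockouts, 4.73 to 5.09 in male controls, 4.85 to 5.12 in female knockouts and 4.78 to 5.00 in female controls. Without the filter its knockouts stood at -0.05 (95% interval -0.19 to 0.09) in males and 0.07 (-0.08 to 0.22) in females, and the groups overlapped in both sexes.

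Nox4, the oxidase that makes hydrogen peroxide without an organiser, lay above the median on all 22 arrays. It read 6.30, 6.43, 6.22, 6.58, 5.97 and 6.07 in male knockouts, against 6.46, 6.35, 6.34, 6.18, 6.32 and 6.34 in male controls. In females it read 6.38 to 6.60 in knockouts and 6.23 to 6.55 in controls. The groups overlapped in both sexes, with differences of -0.07 (95% interval -0.24 to 0.10, adjusted p = 0.934) in males and 0.06 (-0.13 to 0.24, adjusted p = 1) in females. Male knockouts spread more widely (SD 0.22) than the other groups (SD 0.09 to 0.14).

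Cyba, the membrane partner that Nox1, Nox4 and Cybb share, lay above the 75th percentile of its array on all 22. It read 8.72 to 9.04 in male knockouts, with a median of 8.80, against 8.82 to 9.01 in male controls, with a median of 8.95. It read 9.09, 9.31, 8.87, 9.21 and 9.17 in female knockouts, against 9.09, 8.97, 8.91, 9.05 and 8.96 in female controls. Knockouts and controls overlapped in both sexes, at -0.08 (95% interval -0.22 to 0.05, adjusted p = 0.894) in males and 0.13 (-0.02 to 0.28, adjusted p = 0.94) in females.

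Between the sexes, Cyba was lower in male than in female knockouts by -0.28 (SE 0.07, adjusted p = 0.0126), with 4 of 6 male arrays below every female one, while in controls the difference was -0.06 (adjusted p = 0.677). The call was lost with median centring (-0.26), without female knockout 2 (-0.23) and with only the knockout arrays in the model. Since phagocytes are rich in Cyba, their markers are given beside it: the mean of the 11 markers lay between 5.98 and 6.14 in male knockouts and between 6.00 and 6.39 in female knockouts. The leucocyte marker Ptprc lay below the filter. None of the 11 differed by the test between these groups. Their differences ran from -0.29 to 0.04, with a median of -0.15 beside -0.01 over all genes. Of the 10 epithelial markers, 3 were called lower in male than in female knockouts, Krt8 (-0.21), Krt14 (-0.35) and Krt18 (-0.34). Foxa1 (0.22) and Grhl2 (0.18) were called higher, and limma called 7.19% of all genes between these groups. In controls Krt14 (-0.30) and Krt18 (-0.28) passed too, while Krt8 (-0.15), Foxa1 (0.06) and Grhl2 (0.00) did not. The 7 urothelial markers had a median difference of -0.19 between knockout sexes, with none called lower. Psca, a surface antigen of urothelium and prostate, was higher in male knockouts by 0.93 (adjusted p = 6.12e-05) and in male controls by 0.82. The part of these marker differences in the Cyba difference was not tested.

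**Figure D2:**
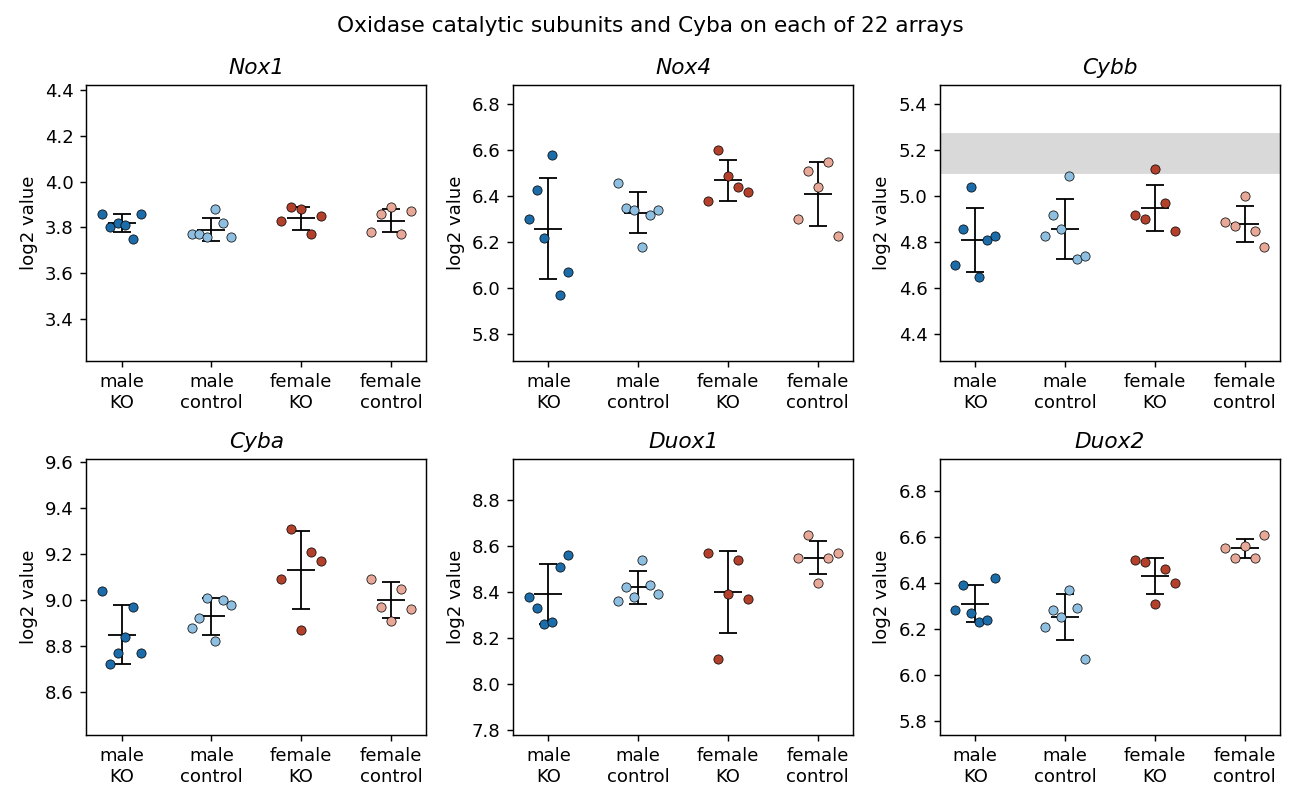
Log2 values of Nox1, Nox4, Cybb, Cyba, Duox1 and Duox2 on each of the 22 arrays, with the mean and SD of each group; every panel spans 1.2 log2 units, and the grey band in the Cybb panel is the range of array medians, 5.10 to 5.27. Knockout and control arrays overlap within each sex except for Duox2 in females, and Nox1 lies between 3.75 and 3.89 on every array.

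Duox1, a dual oxidase with its own peroxidase-like domain, lay above the 75th percentile on all 22 arrays. It read 8.38, 8.33, 8.26, 8.27, 8.51 and 8.56 in male knockouts, against 8.36, 8.42, 8.38, 8.54, 8.43 and 8.39 in male controls. In females it read 8.57, 8.11, 8.39, 8.54 and 8.37 in knockouts, against 8.55, 8.65, 8.44, 8.55 and 8.57 in controls. The groups overlapped, and neither difference passed, with -0.03 in males (adjusted p = 0.967) and -0.15 in females (95% interval -0.31 to -0.00, adjusted p = 0.906).

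Duox2, its close relative, was lower in males than in females among controls. It read 6.21, 6.28, 6.25, 6.37, 6.29 and 6.07 in male controls, against 6.55, 6.51, 6.56, 6.51 and 6.61 in female controls. Every male control lay below every female control, and the difference was -0.30 (SE 0.05, adjusted p = 0.000412), or 1.23-fold. Arrays that did not overlap, with males lower, were found for 2.82% of all genes in controls. In knockouts the groups overlapped, at 6.23 to 6.42 in males and 6.31 to 6.50 in females (-0.13, SE 0.05, adjusted p = 0.179). Without male control 6 it was -0.27. The control difference kept its call under every alternative that tested Duox2, with each array left out in turn included, at -0.33 to -0.26.

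In females every Duox2 knockout array, at 6.50, 6.49, 6.31, 6.46 and 6.40, lay below every control array, the lowest of which was 6.51. Groups that did not overlap, with knockouts lower, were found for 0.619% of all genes in females, and the difference of -0.11 (SE 0.05, 95% interval -0.22 to -0.00) did not pass the test (adjusted p = 0.906). In males the knockouts stood 0.06 above controls (adjusted p = 0.897), with overlap.

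The maturation factors lie between the dual oxidases in gene order on chromosome 2, as Duox2, Duoxa2, Duoxa1 and Duox1. Duoxa2, which carries Duox2 to the cell surface, read 5.55, 5.84, 5.50, 5.79, 5.65 and 5.69 in male controls, against 6.14, 6.67, 6.02, 5.92 and 6.78 in female controls. Its male controls lay below its female controls on every array (-0.64, SE 0.14, adjusted p = 0.00594), as those of Duox2 did and as for 2.82% of all genes. The Duoxa2 knockouts overlapped (-0.40, adjusted p = 0.103). Duoxa1, the partner of Duox1, was lower in male knockouts, at 8.75 to 9.08, than in female knockouts, at 9.09 to 9.31 (-0.29, SE 0.07, adjusted p = 0.0141), and overlapped in controls (-0.18, adjusted p = 0.176). The Duoxa2 control difference was -0.64 without male control 6 too. Between knockout sexes limma called 7.19% of all genes, and the share of all genes without overlap there is not given. The Duoxa1 call was lost without female knockout 2 (-0.26). Knockouts and controls overlapped for both factors in each sex.

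**Figure D3:**
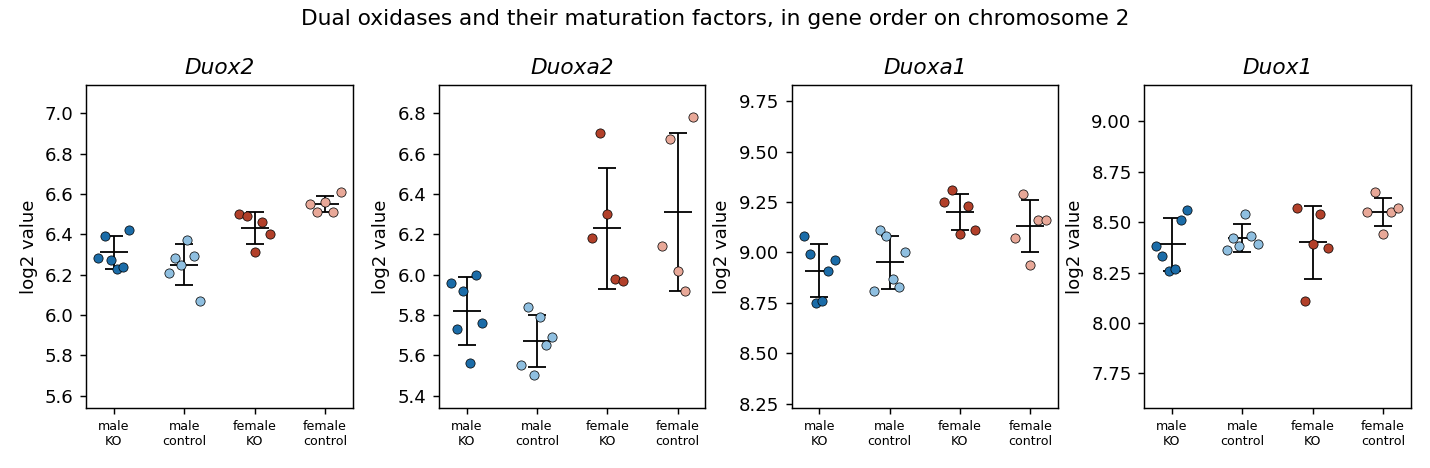
Log2 values of Duox2, Duoxa2, Duoxa1 and Duox1, left to right in their order on chromosome 2, on each of the 22 arrays with group means and SD; every panel spans 1.6 log2 units. Male controls lie below all female controls for Duox2 and Duoxa2, as for 2.82% of all genes. Male knockouts lie below all female knockouts for Duoxa1 by a narrow margin (9.08 against 9.09), where limma called 7.19% of all genes between these groups.

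Read as a family, 0 of the 4 members that were tested beside Noxo1 and Noxa1 passed in knockouts against controls in males, in females or over both sexes, where limma called 0.199%, 0.0315% and 0.247% of all genes. At an unadjusted p under 0.05, Duox1 and Duox2 were lower in females in limma's fit, beside 2.40% of all genes that were lower by this measure. None of the 4 had an unadjusted p under 0.05 in males or over both sexes, beside 6.27% and 7.19% of all genes. In males minus females, Noxa1 was higher and Duox2 lower in controls and Cyba lower in knockouts, which is 2 and 1 of the 6 tested members beside 6.94% and 7.19% of all genes. The male control arrays also entered the comparison that chose Noxa1, so its place in the control count supports nothing. No member passed in the test of the male against the female effect of the knockout genotype. There limma called 0.00525% of all genes. Of the 4 members not chosen by the male values, Cyba and Duox2 had an unadjusted p under 0.05, beside 4.04% of all genes. Their estimates had opposite signs, -0.22 for Cyba and 0.17 for Duox2.

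**Figure D4:**
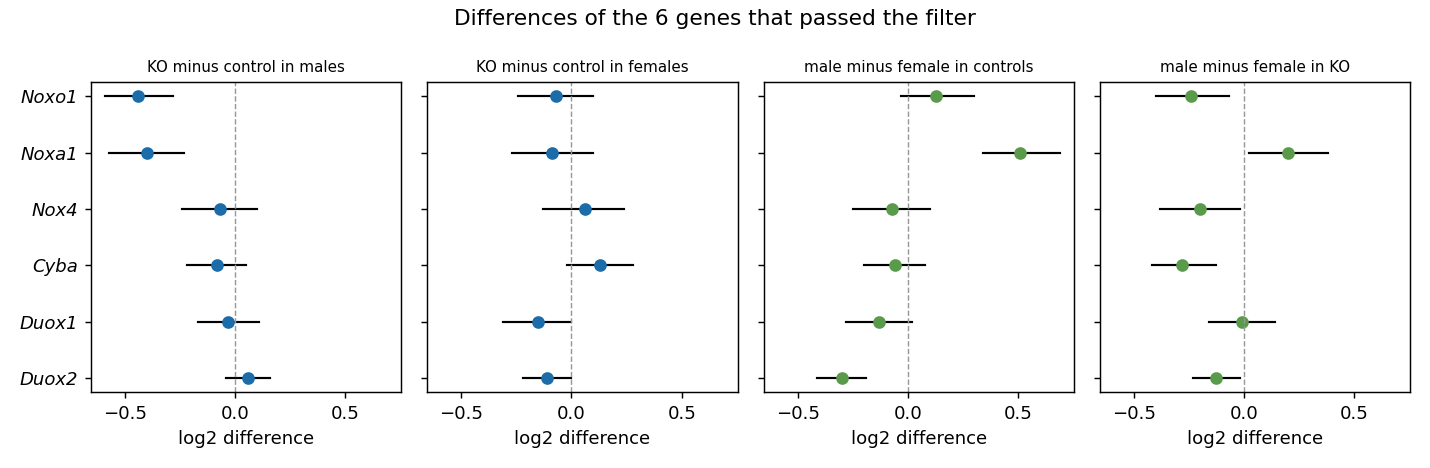
Log2 differences of the 6 members that passed the filter, from left to right for knockout minus control in males, the same in females, male minus female among controls, and male minus female among knockouts; points are estimates over all 22 arrays and lines their 95% intervals, not adjusted for the number of genes. Noxo1 (-0.44) and Noxa1 (-0.40), which were chosen by the first panel, lie near 0 in the second, and Noxa1 (0.51) and Duox2 (-0.30) stand apart in the third.

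The partners of the oxidases were 12 listed genes, of which 9 were tested; Nox3 was among those left out, being too dim. None of the 9 passed in knockouts against controls, and their median difference was -0.01 in males and -0.04 in females, beside 0.01 over all genes in each. Ncf1, the phagocyte counterpart of Noxo1, had the smallest p in males. It read 6.45, 6.44, 6.48, 6.33, 6.35 and 6.28 in male knockouts, against 6.14, 6.19, 6.22, 6.43, 6.18 and 6.01 in male controls. Of the 6 controls 5 lay below every knockout, opposite to Noxo1, but the difference of 0.19 (SE 0.06) did not pass (adjusted p = 0.463). Rac1, the GTPase of the Nox1 complex, stood at -0.01 in males and 0.01 in females.

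Gpx2, a glutathione peroxidase of gut and other epithelia that removes hydrogen peroxide, was the 1 gene called in knockouts against controls among the 43 tested genes of the wider lists, which held 57 genes. That is 2.33% in males and over both sexes, beside 0.199% and 0.247% of all genes. This share is 1 gene, and the lists were chosen with earlier results of these data known, so nothing is read from it. Gpx2 read 6.61, 6.53, 6.65, 6.32, 6.59 and 6.26 in male knockouts, against 6.71, 6.75, 7.13, 7.14, 7.07 and 7.15 in male controls. Every male knockout (6.65 or less) lay below every male control (6.71 or more), and male arrays did not overlap for 0.420% of all genes. Gpx2 fell by 0.50 (SE 0.09, adjusted p = 0.0159), or 1.41-fold, in males. In female knockouts it read 6.74, 7.02, 6.66, 6.58 and 6.80, against 7.19, 6.96, 6.98, 6.83 and 6.85 in female controls, with overlap and a difference of -0.20 (SE 0.10, adjusted p = 0.921). Over both sexes it fell by 0.35 (SE 0.07, adjusted p = 0.021).

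The male call of Gpx2 was lost without male control 3 (-0.47), 4 (-0.47) or 6 (-0.47) or male knockout 6 (-0.45), and when the fit held the male arrays alone (-0.50). The call over both sexes was lost without female control 1 (-0.32) or female knockout 3 (-0.34) or 4 (-0.33). The pseudogene Gpx2-ps1, whose probe set may share signal with Gpx2, stood at -0.61 in male and -0.28 in female knockouts, so the transcripts of the gene and of its copy cannot be told apart here.

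The list of genes that remove superoxide and peroxide held 20 genes, of which 15 were tested and Gpx2 was called, with a median of 0.01 in males and 0.05 in females. At an unadjusted p under 0.05, 2 were lower in males, Gpx2 included, and 2 higher in females, beside 2.89% and 3.07% of all genes. Of the 8 tested of 10 genes of the NRF2 response to oxidants, 0 passed, with medians of 0.03 in males and -0.05 in females, and 1 was lower in females at an unadjusted p under 0.05, beside 2.40% of all genes. That was Slc7a11, the cystine carrier, which stood at -0.22 over both sexes (adjusted p = 0.485), and Nfe2l2, NRF2 itself, stood at 0.03. Of the 6 tested of 8 genes that supply NADPH, 0 passed, with medians of 0.00 in males and 0.07 in females, and 1 was higher in females at an unadjusted p under 0.05, beside 3.07% of all genes. This was Mthfd1, an enzyme of folate metabolism, at 0.18 (adjusted p = 0.863).

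Of the 5 tested of 7 haem peroxidases and cyclooxygenases, 0 passed, with medians of -0.03 in males and -0.04 in females. Lpo, lactoperoxidase, which uses hydrogen peroxide to make antimicrobial products, stood at -0.26 in males (SE 0.08, adjusted p = 0.328) and -0.13 in females. It was the 1 gene of the list with an unadjusted p under 0.05 in males, beside 6.27% of all genes in either direction. Over both sexes Pxdn, peroxidasin, stood at -0.04, Ptgs2, an inducible cyclooxygenase, at -0.07 and Epx, eosinophil peroxidase, at 0.02.

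Between the sexes the wider lists held more calls: 7 of 43 genes in controls and 7 of 43 in knockouts, which is 16.3% in each, beside 6.94% and 7.19% of all genes. The lists were chosen with earlier results of these data known, so nothing is read from these shares. Slc7a11, which imports cystine for glutathione, was higher in male knockouts (6.63 ± 0.23) than in female knockouts (5.81 ± 0.30) by 0.82, and in male controls (6.79 ± 0.18) than in female controls (6.10 ± 0.09) by 0.68 (adjusted p = 5.43e-05 and 0.000486). Gclc, an enzyme of glutathione synthesis, was higher in males by 0.43 in knockouts and 0.48 in controls (adjusted p = 0.000631 and 0.000167). Rac3, a GTPase related to Rac1, was higher in males by 0.33 in both genotypes. Sh3pxd2b, an adaptor related to Ncf1, was lower in males by -0.47 in knockouts and -0.44 in controls (adjusted p = 0.000294 and 0.00068).

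Ncf1 was higher in male than in female knockouts by 0.35 (adjusted p = 0.00111), and stood at 0.11 in controls (adjusted p = 0.36). Nfe2l2 was higher in male knockouts by 0.34 (adjusted p = 0.00277), with 0.17 in controls (adjusted p = 0.182). The metabolic enzymes Idh1 and Mthfd1 were higher in male controls by 0.21 and 0.30 (adjusted p = 0.0176 and 0.00632), with 0.16 and 0.13 in knockouts, neither of which passed. Whether these sex differences changed with genotype was tested for each gene, and none passed (adjusted p of 0.997 or more). Idh1 lost its call without female control 2 (0.19). Without male control 6, each of the 7 genes called between control sexes still passed, with adjusted p of at most 0.0144.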

How the data were processed

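The authors deposited 1 table of log2 values for 72688 probe sets on 22 arrays, with no software or method of normalization given in the sources used here; the log2 scale was inferred from their range of 1.59 to 14.23. Per the labels' protocols, RNA was labelled with biotin and hybridised to Affymetrix arrays of whole transcripts. The number of arrays limits the precision, with a median SE of 0.0647 in the male and 0.0708 in the female comparison.

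In the platform annotation, 30604 probe sets had 1 symbol, with symbols updated through gene identifiers for 827. Only transcript clusters were used, with the probe set of highest mean per gene. limma 3.58.1 (R 4.3.3) was fitted with 4 group means, and p-values were adjusted by Benjamini-Hochberg over 19050 genes, with calls at an adjusted p under 0.05. Neighbours come from the gene order of GRCm38.p6. The genes named are Sox9, Shh, the 8 members, each wider list's called genes or otherwise up to 4 of smallest p, and 5 most like genes by correlation. Rac1, Gpx2-ps1 and chromosome neighbours are named beside these. The members and lists were chosen with earlier results of these data known. The fit was run on simulated data with independent noise for each gene and array, which checks the code and not the calls. Alternatives are given at the end. No pair of arrays shared more than 0.0334% of values. Numbered replicates were not taken as pairs, since the deviations of same-numbered arrays from their group means correlated at -0.21 to 0.13.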

Additional observations from a re-analysis of the deposited data

Results flagged for a closer look

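Of 56 sets of values (14 genes in 4 groups), 1 held an array far from the others by Dixon's criterion, which chance meets in about 1 of 20 sets. Noxa1 in male control 1 read 6.72, against 7.07 in the next lowest male control, a gap of 0.66 of the group's range. Without that array the Noxa1 difference between male knockouts and male controls was -0.47, and over both sexes it was -0.28.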

How the results depend on the processing

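Under the alternatives other than leaving out arrays, the members called in males numbered 1 with quantile normalization, the 75th percentile filter (which left out Noxo1, Nox4 and Duox2), the replicate block or the mesenchyme covariate, and 0 with only the male arrays. Noxa1 missed the threshold in males with quantile normalization (-0.41), the replicate block (-0.40), the mesenchyme covariate (-0.40) and only the male arrays (-0.40), and Noxo1 with only the male arrays (-0.44). Over both sexes, where 0 were called, 1 member was called with quantile normalization, median centring or the mesenchyme covariate and 2 with array weights. Between male and female knockouts the count was 0 with median centring and 2 with the replicate block or the mesenchyme covariate, and in controls it was 1 with the 75th percentile filter. Called genes of the wider lists numbered 0 in males and over both sexes with the replicate block and 0 in males with only the male arrays. All genes called numbered 20 in males with only the male arrays; 3 in females with median centring or only the female arrays and 11 with array weights; 72 over both sexes with array weights. For the male against the female effect they numbered 0 with quantile normalization, median centring, no filter or trend and robust eBayes, and 2 with the replicate block or array weights.

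Leaving out each array in turn gave 1 to 2 members in males, 0 to 2 over both sexes and 0 to 2 between knockout sexes, and -0.47 to -0.37 for Noxa1 in males. It gave 0 to 1 gene of the wider lists in males and over both sexes, 2 to 8 of all genes in females and 0 to 2 for the male against the female effect. Differences near 0 changed sign: Duox1 between knockout sexes with median centring (0.01) and, between -0.08 and 0.03, without 1 array, Cyba over both sexes with array weights (-0.01), and Nox4 over both sexes, from -0.04 to 0.02. By deviations from group means, only female knockout 3 among the knockout arrays correlated best with the control of its own number (0.13, against at most 0.12). In the replicate block fit Noxo1 between knockout sexes passed (-0.28), and Gpx2 missed the threshold in males (-0.50) and over both sexes (-0.35). All genes called in that fit numbered 30 in males and 4 in females. The causes of these changes were not tested.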
